A study of Mus musculus with 14 samples.

Results

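Neurotrophins are secreted growth factors of the nervous system, and 7 genes of this family and its receptors were followed through 14 RNA-seq libraries of mouse dorsal hippocampus. They were selected by gene name, with no threshold on their values but with earlier results of these data known, and all 7 were present in both deposited count tables, which together list 27591 genes. The genes were the ligands Bdnf and Ntf3, the tyrosine kinase receptors Ntrk2 (TrkB) and Ntrk3 (TrkC), the receptor Ngfr (p75), and the sortilin family receptors Sort1 and Sorcs3. All 7 passed the low-count filter in both tables.

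The study asked how CSP-TTK21 affects hippocampal transcription in THY-Tau22 mice, a tauopathy model. CSP-TTK21 is an activator of the histone acetyltransferases CBP and p300 coupled to a carbon nanosphere carrier (CSP). All mice were males aged 8 months on the C57BL6 strain (C57BL6/J in the study's methods). THY-Tau22 mice (TAU) carry a mutated human Tau transgene in the heterozygous state, driven in neurons by a Thy1 promoter, beside their own Tau gene. A basal experiment held WT basal (n = 3) and TAU basal (n = 2), untrained resting mice for which no injection is given in the labels. A learning experiment held WT VEH_HC (n = 3), saline-injected WT mice left in the home cage, and WT VEH (n = 2), saline-injected WT mice trained in a spatial task. It also held trained THY-Tau22 mice injected with the carrier alone (TAU VEH, n = 2) or with CSP-TTK21 (TAU MOL, n = 2). Genotype and injected vehicle therefore differed together between TAU VEH and WT VEH and cannot be told apart.

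Neurotrophins are made as precursors that are cleaved by proteases, and the mature forms dimerise and activate Trk receptors. BDNF acts mainly on TrkB and neurotrophin-3 on TrkC, through the MAP kinase, PI3 kinase and phospholipase C gamma routes, whereas the uncleaved precursors bind p75 together with sortilin family members. In the hippocampus, BDNF and TrkB are known for their part in long-term potentiation, and neuronal activity raises Bdnf transcription through CREB, its coactivator CBP and other factors.

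Because CSP-TTK21 acts on the coactivators of CREB, sequence upstream of the transcription starts was searched for the cAMP response element. A window of 300 bases, 250 of them upstream, was taken at each of the 20 annotated starts of the 7 genes in the mm9 genome. The full palindrome TGACGTCA was in none of the 20 windows and in 2.09% of 66167 windows at starts of protein-coding genes. The letters TCACGTCA, which differ from the palindrome at 1 base and are known from the activity-responsive Bdnf promoter, were in 0.453% of all windows. They were found at 2 of the 20 member starts, the fourth of the 7 Bdnf starts and the second of the 3 Ntrk2 starts. Because the letters were taken from a Bdnf promoter, the Bdnf match was set beforehand. Both strands were searched, and these letters contain the short element TGACG, read on the opposite strand as CGTCA, which 23.7% of all windows held. Of the 20 member starts, only the same 2 held it. The 120 bases before these starts are given below in the direction of transcription, with the element in capitals. The same stretch is shown for Ntrk3 and Sort1, the 2 genes that were lower after training, whose windows held neither form.
Bdnf, the fourth start, chr2:109532473-109532592, plus strand: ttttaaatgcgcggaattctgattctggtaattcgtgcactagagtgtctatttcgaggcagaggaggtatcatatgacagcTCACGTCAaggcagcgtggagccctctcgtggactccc
Ntrk2, the second start, chr13:58909141-58909260, plus strand: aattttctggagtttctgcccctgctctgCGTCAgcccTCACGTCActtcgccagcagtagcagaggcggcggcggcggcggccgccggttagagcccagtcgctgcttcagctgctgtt
Ntrk3, the first start, chr7:85723295-85723414, minus strand: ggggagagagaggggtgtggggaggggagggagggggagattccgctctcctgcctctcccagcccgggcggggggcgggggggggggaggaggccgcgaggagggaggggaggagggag
Sort1, the first start, chr3:108086889-108087008, plus strand: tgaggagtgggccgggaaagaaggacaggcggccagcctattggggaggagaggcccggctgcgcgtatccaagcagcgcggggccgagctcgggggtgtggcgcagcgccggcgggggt
In Bdnf the element began 38 bases before the start, and in Ntrk2 it began 82 bases before the start, with a further short element just upstream of it. A match of letters describes the sequence and shows no binding.

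Libraries held 28639121 to 37681155 gene counts in the basal and 24693713 to 52180305 in the learning experiment. Values were scaled to CPM (counts relative to library size) with TMM factors, which were set separately for the 2 tables. A change was called with edgeR's quasi-likelihood test where the p adjusted over all genes (Benjamini-Hochberg) was below 0.05 and the log2 fold change exceeded 0.2 in size. Markers of hippocampal neurons summed to between 9671 and 17663 CPM in every library, with 0 of 5 markers at 0. Markers of the choroid plexus, a tissue beside the hippocampus, differed between groups. All 14 were detected, and they summed to 160 to 416 CPM in WT VEH_HC, 2193 to 3146 in WT VEH, 464 to 545 in TAU VEH and 1072 to 1184 in TAU MOL. In the basal experiment they ran from 597 to 715 CPM in WT and from 704 to 1995 in TAU. In whole tissue, fewer cells of a type and less RNA per cell cannot be told apart.

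Per kilobase of exon, Sort1 had the highest level of the 7 genes. Its mean was 106 CPM per kb in the basal and 127 in the learning experiment, above 97.3% and 98.1% of the genes tested. Ntrk2 followed at 37.3 and 38.2 CPM per kb. Bdnf, Ntrk3 and Sorcs3 lay close together, between 6.84 and 9.31 CPM per kb, and their ranges over libraries overlapped in each experiment. Ntf3 had 5.19 and 2.76 CPM per kb, overlapping Ntrk3 and Sorcs3 in the basal experiment only, and Ngfr was lowest at 1.01 and 1.18. The counts behind these levels ran from 79 to 231 per library for Ngfr and from 89 to 350 for Ntf3, but from 16036 to 29854 for Ntrk2 and from 23770 to 53530 for Sort1. Values below are CPM and are compared within a gene.

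**Figure D1:**
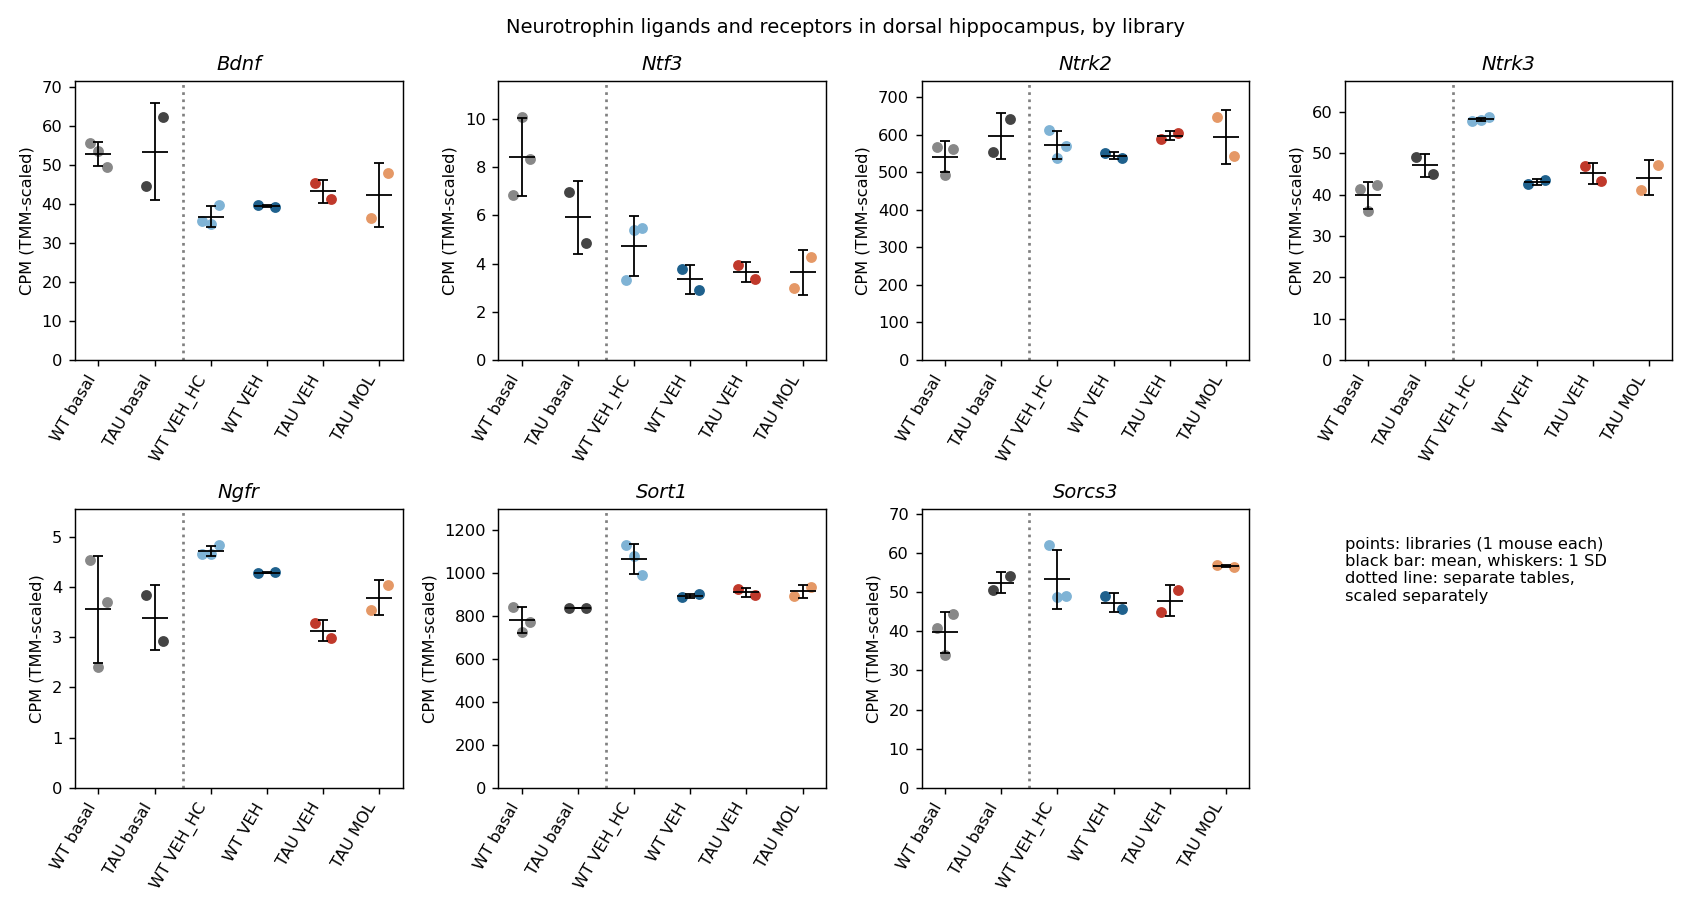
CPM (vertical axes, from 0) of each of the 7 genes in the 14 libraries, 1 point a library, by group, with the mean and 1 SD in black. The dotted line divides the 2 tables, which were scaled separately. WT VEH_HC lies above every other library for Ntrk3 (57.8 to 58.6 against 36.1 to 49.0), Sort1 (991 to 1131 against 727 to 936) and Ngfr (4.65 to 4.83 against 2.41 to 4.54). How many of all genes had this pattern was not counted.

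Bdnf, the ligand of TrkB (chr2:109514857-109567204, plus strand, mm9), differed little between groups. In the basal experiment it was at 55.6, 53.5 and 49.5 CPM in WT and at 44.6 and 62.2 CPM in TAU. The TAU libraries lay on either side of the WT values, and the log2 fold change was 0.01 (SE 0.15). In the learning experiment Bdnf was at 35.6, 34.8 and 39.8 CPM in WT VEH_HC and at 39.6 and 39.3 CPM in WT VEH. It was at 45.2 and 41.1 CPM in TAU VEH and at 36.4 and 48.0 CPM in TAU MOL. WT VEH overlapped WT VEH_HC, and the log2 difference after training was 0.10 (SE 0.11, edgeR adjusted p = 0.56). The 95% interval of that difference, from its SE by a normal approximation, ran from -0.11 to 0.31. Such intervals are narrower than edgeR's test implies. Both TAU VEH values were above both WT VEH values, but the log2 difference of 0.13 (SE 0.12) did not pass the test (edgeR adjusted p = 0.53). TAU MOL enclosed TAU VEH, with a log2 difference of -0.04 and a 95% interval, by the same approximation, from -0.27 to 0.19. Counts were summed over all 10 annotated Bdnf transcripts, so transcripts from the start with the element could not be followed on their own.

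Ntf3 (chr6:126051431-126116762, minus strand), which encodes neurotrophin-3, was the more variable ligand. Its means were 8.41 ± 1.61 CPM in WT basal and 5.91 ± 1.51 in TAU basal (SD, n = 3 and 2), and the groups overlapped. The learning means were 4.73 ± 1.23 CPM in WT VEH_HC, 3.34 ± 0.606 in WT VEH, 3.64 ± 0.403 in TAU VEH and 3.64 ± 0.924 in TAU MOL. The log2 difference was -0.50 both for TAU basal against WT basal (SE 0.22, edgeR adjusted p = 0.90) and for WT VEH against WT VEH_HC (SE 0.23, edgeR adjusted p = 0.19). The training difference passed in 1 of 18 alternative fits, the one without a low-count filter (adjusted p = 0.030), with adjusted p up to 0.94 in the others.

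Ntrk2, which encodes the BDNF receptor TrkB (chr13:58907957-59235331, plus strand), was the steadiest of the 7 genes. Its lowest library had 493 CPM and its highest 646, a ratio of 1.31. Group means ran from 541 ± 41.1 CPM in WT basal to 597 ± 61.4 in TAU basal. In the learning experiment they were 573 ± 37.1 in WT VEH_HC, 544 ± 9.82 in WT VEH, 597 ± 11.2 in TAU VEH and 595 ± 71.9 in TAU MOL. The largest log2 difference in the 5 group comparisons was 0.14 (TAU basal against WT basal, SE 0.13, edgeR adjusted p = 0.91). TAU VEH lay above WT VEH in both libraries, with a log2 difference of 0.14 (SE 0.087, edgeR adjusted p = 0.36). That difference passed only when libraries were scaled by their totals alone, at 0.28 (edgeR adjusted p = 0.049), a scaling that moved the median of all genes in this comparison to 0.15. Over all alternatives its adjusted p ran from 0.049 to 0.97. The full-length and truncated forms of TrkB were not separated, because counts were per gene.

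Ntrk3, which encodes TrkC, the receptor of neurotrophin-3 (chr7:85337248-85723294, minus strand), showed the clearest difference of the 7. It was at 57.8, 58.1 and 58.6 CPM in WT VEH_HC and at 42.4 and 43.5 CPM in WT VEH. It was at 46.9 and 43.3 CPM in TAU VEH and at 41.2 and 47.1 CPM in TAU MOL. The 3 home-cage libraries were close to each other and above all 6 trained libraries, which overlapped among themselves. The share of all genes with this order was not counted. Ntrk3 fell by 0.44 on the log2 scale in WT VEH against WT VEH_HC (0.739-fold, SE 0.073, edgeR adjusted p = 0.0082). In the basal experiment, whose mice were also untrained, Ntrk3 was at 41.3, 36.1 and 42.2 CPM in WT and at 49.0 and 45.1 CPM in TAU. These values, scaled separately, were all below those of the home-cage group. TAU basal was above WT basal without overlap, with a log2 difference of 0.24 (SE 0.12, edgeR adjusted p = 0.90).

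Sort1, which encodes sortilin, a sorting receptor that binds proneurotrophins together with p75 (chr3:108087009-108164429, plus strand), also had its highest values in the home-cage group. It was at 1131, 1078 and 991 CPM in WT VEH_HC and at 888 and 902 CPM in WT VEH. It was at 925 and 897 CPM in TAU VEH and at 894 and 936 CPM in TAU MOL. Again the home-cage libraries were above all 6 trained ones, an order whose share over all genes was not counted. Sort1 fell by 0.25 on the log2 scale in WT VEH against WT VEH_HC (0.839-fold, SE 0.066, edgeR adjusted p = 0.041). In the basal experiment it was at 845, 727 and 774 CPM in WT and at 839 and 837 CPM in TAU, with a log2 difference of 0.10 (SE 0.12). Sort1 overlaps exons of Gm12523 on the opposite strand, and the library kit does not mark strand, so reads there cannot be told apart.

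The call of Sort1 was less stable than that of Ntrk3. Of 18 alternative fits of the training comparison, 15 called Ntrk3 and 6 called Sort1. The adjusted p of Ntrk3 ran from 1.0e-05 to 0.94 and that of Sort1 from 0.0063 to 0.96. Without WT VEH 1 neither gene passed (edgeR adjusted p = 0.15 for Ntrk3 and 0.26 for Sort1), and without WT VEH 2 neither did (0.051 and 0.13). Sort1 also missed the limit without WT VEH_HC 1 (0.091), WT VEH_HC 2 (0.071), TAU VEH 1 (0.068), TAU VEH 2 (0.067), TAU MOL 1 (0.061) or TAU MOL 2 (0.061). All 14 choroid plexus markers were higher in WT VEH than in WT VEH_HC, while 0 of 5 hippocampal neuron, 0 of 6 astrocyte and 0 of 6 oligodendrocyte markers were called. Over all genes tested, 5.35% were called higher and 3.05% lower. Of the other cell types, 1 of 8 dentate granule cell markers (C1ql2) and 1 of 5 CA3 markers (Grik4) were lower. Higher were 2 of 7 interneuron markers (Pvalb and Vip), 1 of 6 CA1 (Spink8), 1 of 5 CA2 (Amigo2) and 1 of 5 microglia markers (P2ry12). Summed over each of these 6 lists, the 2 groups overlapped, with dentate markers at 574 to 598 CPM in WT VEH against 592 to 802 in WT VEH_HC, and the part of these cell types was not tested. With the choroid plexus level as a covariate the Ntrk3 difference was -0.35 (SE 0.24, edgeR adjusted p = 0.94) and that of Sort1 0.13 (SE 0.19, adjusted p = 0.96), in a fit that called 0 genes of the whole table. Once GC content and length were corrected for, Ntrk3 still passed at -0.39 (edgeR adjusted p = 0.017), whereas Sort1 did not at -0.17 (adjusted p = 0.11).

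**Figure D2:**
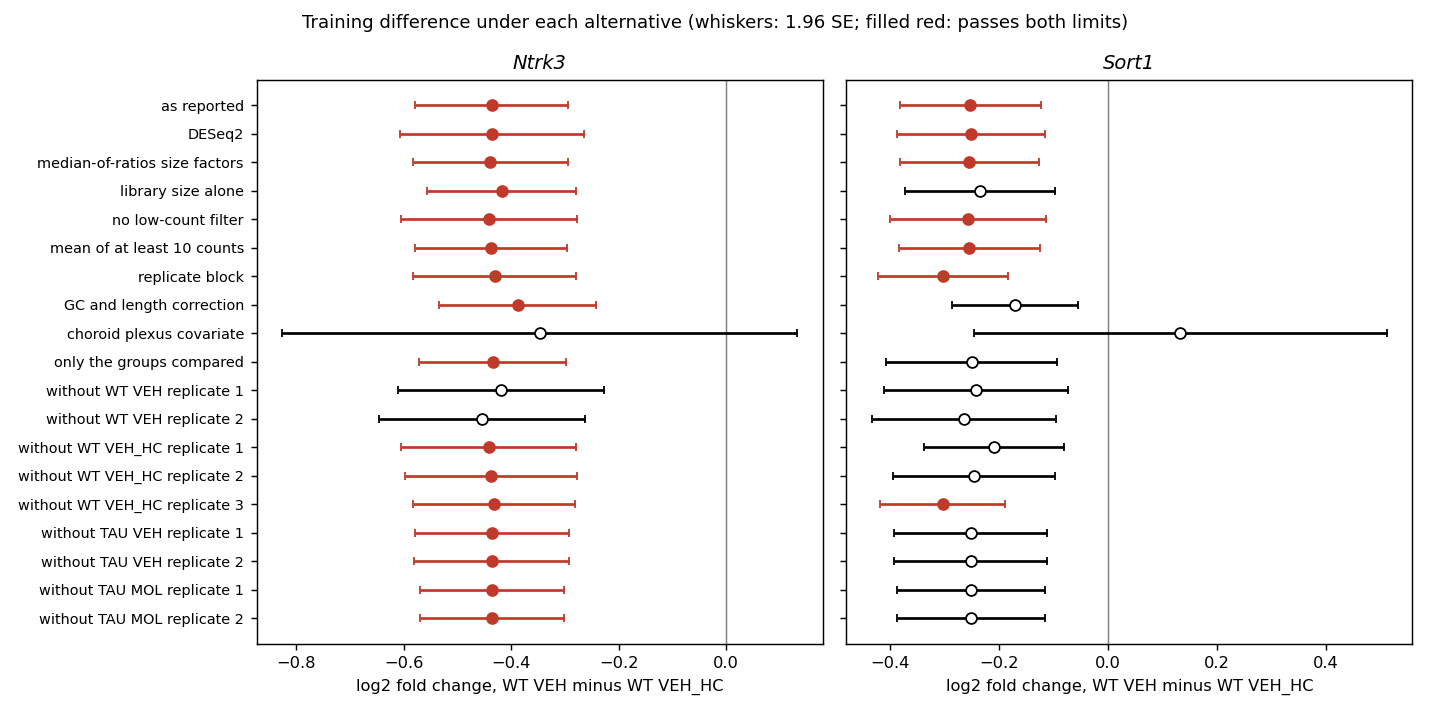
Log2 fold change of Ntrk3 (left) and Sort1 (right) in WT VEH against WT VEH_HC (horizontal axes), as reported and under each of 18 alternatives. Whiskers show the 95% interval by a normal approximation, which is narrower than edgeR's test implies. Filled red points pass both limits. Ntrk3 stays between -0.45 and -0.35 throughout, while Sort1 lies between -0.30 and -0.17 except with the choroid plexus covariate (0.13).

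Ngfr, which encodes the p75 receptor of all neurotrophins and their precursors (chr11:95430132-95449049, minus strand), had few counts. It was at 4.65, 4.65 and 4.83 CPM in WT VEH_HC and at 4.28 and 4.29 CPM in WT VEH. It was at 3.28 and 2.98 CPM in TAU VEH and at 3.54 and 4.04 CPM in TAU MOL. The 4 groups did not overlap, with TAU VEH lowest and TAU MOL between TAU VEH and WT VEH. Among all genes tested, the 2 groups did not overlap for 43.8% after training and 57.9% in TAU VEH against WT VEH. In TAU MOL against TAU VEH that held for 38.9%. The share for all 4 groups together was not counted. None of the Ngfr steps passed the test. The log2 difference was -0.45 for TAU VEH against WT VEH (SE 0.14, edgeR adjusted p = 0.057) and 0.27 for TAU MOL against TAU VEH (SE 0.14, edgeR adjusted p = 0.85). In the first of these it was negative in 18 of 18 alternatives and passed in 0, with adjusted p from 0.055 to 0.64, and it was -0.15 after the GC and length correction. In the basal experiment Ngfr spread from 2.41 to 4.54 CPM in WT, and the TAU values of 3.85 and 2.93 lay inside that range. Markers of cholinergic neurons, whose fibres carry p75 in the hippocampus, summed to at most 3.39 CPM in any library (2 of 3 listed).

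Markers of other cell types also differed between TAU VEH and WT VEH, the comparison in which Ngfr came nearest to the limit. All 14 choroid plexus markers were lower, as were 4 of 6 CA1 pyramidal cell markers (596 to 634 against 1009 to 1086 summed CPM) and 4 of 5 hippocampal neuron markers (11643 to 12066 against 16412 to 16490). By contrast, 3 of 6 astrocyte markers were higher (4007 to 4039 against 2959 to 3342). Also lower were 2 of 7 interneuron (Slc32a1 and Pvalb), 1 of 5 microglia (Tmem119), 1 of 3 oligodendrocyte precursor (Cspg4) and 1 of 5 meningeal markers (Igf2), and of 4 neocortex markers Cux2 was lower and Rasgrf2 higher. None of these markers was at 0. No marker was called in the dentate granule cell, CA2, CA3, thalamus, oligodendrocyte, endothelial and pericyte or cholinergic neuron lists. Over all genes tested, 3.61% were called higher and 10.8% lower. With the choroid plexus level as a covariate the Ngfr difference was -0.43 (SE 0.32), and the part of the other cell types was not tested.

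Sorcs3, which encodes a sortilin family receptor of hippocampal synapses (chr19:48280515-48879995, plus strand), had higher values in TAU than in WT libraries of the basal experiment, without passing the test. It was at 40.9, 34.05 and 44.4 CPM in WT and at 50.5 and 54.3 CPM in TAU, without overlap. The log2 difference was 0.40 (SE 0.13, edgeR adjusted p = 0.90). In the learning experiment it was at 62.05, 48.7 and 49.1 CPM in WT VEH_HC and at 49.1 and 45.7 CPM in WT VEH. It was at 45.0 and 50.6 CPM in TAU VEH and at 57.0 and 56.5 CPM in TAU MOL. TAU MOL was above both other trained groups in every library. The log2 difference was 0.25 against TAU VEH (SE 0.11, edgeR adjusted p = 0.78) and 0.26 against WT VEH (SE 0.11, edgeR adjusted p = 0.22), and neither passed. The difference from WT VEH was positive in 18 of 18 alternatives and passed in 1, the fit on these 2 groups alone (adjusted p = 0.037), with adjusted p up to 0.67.

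Counted over the 7 genes, the comparisons gave few calls. After training, 2 of 7 were lower and 0 higher, where 8.4% of all genes tested were called, 5.35% higher and 3.05% lower. In TAU VEH against WT VEH, 0 of 7 were called, against 14.4% of all genes, 3.61% higher and 10.8% lower. In TAU MOL against WT VEH, 0 of 7 were called, against 5.63% of all genes. In TAU MOL against TAU VEH, edgeR called 0 of 7 and 0.0% of all genes, while DESeq2 called 54 genes and none of the 7. In TAU basal against WT basal, 0 of 7 were called, where 0.0245% of all genes were. At an unadjusted p under 0.05, edgeR counted 2 of the 7 genes in the basal comparison, 1 each in TAU VEH against WT VEH, TAU MOL against TAU VEH and TAU MOL against WT VEH. Over all genes, these 4 comparisons had 803, 4566, 1064 and 3324 genes at that level. DESeq2 called 0 of 7 in each of them.

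The libraries of the 2 groups did not overlap for 2 of 7 genes in the basal comparison, for 3 of 7 after training and for 3 of 7 in TAU VEH against WT VEH. Over all genes tested, that held for 18.5%, 43.8% and 57.9%. It held for 2 of 7 in TAU MOL against TAU VEH and 2 of 7 in TAU MOL against WT VEH, where all genes had 38.9% and 52.5%. None of these counts stood far above the share over all genes. The genotype difference itself was compared between the 2 experiments in 1 fit of 14 libraries. It called 0 of 7 genes, against 0.129% of all genes, with 0 of 7 at an unadjusted p under 0.05 in edgeR and 0 of 7 called by DESeq2. The most negative estimate was -0.36 for Sorcs3 (SE 0.17, edgeR adjusted p = 0.64) and the most positive 0.67 for Ntf3 (SE 0.38, adjusted p = 0.71).

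**Figure D3:**
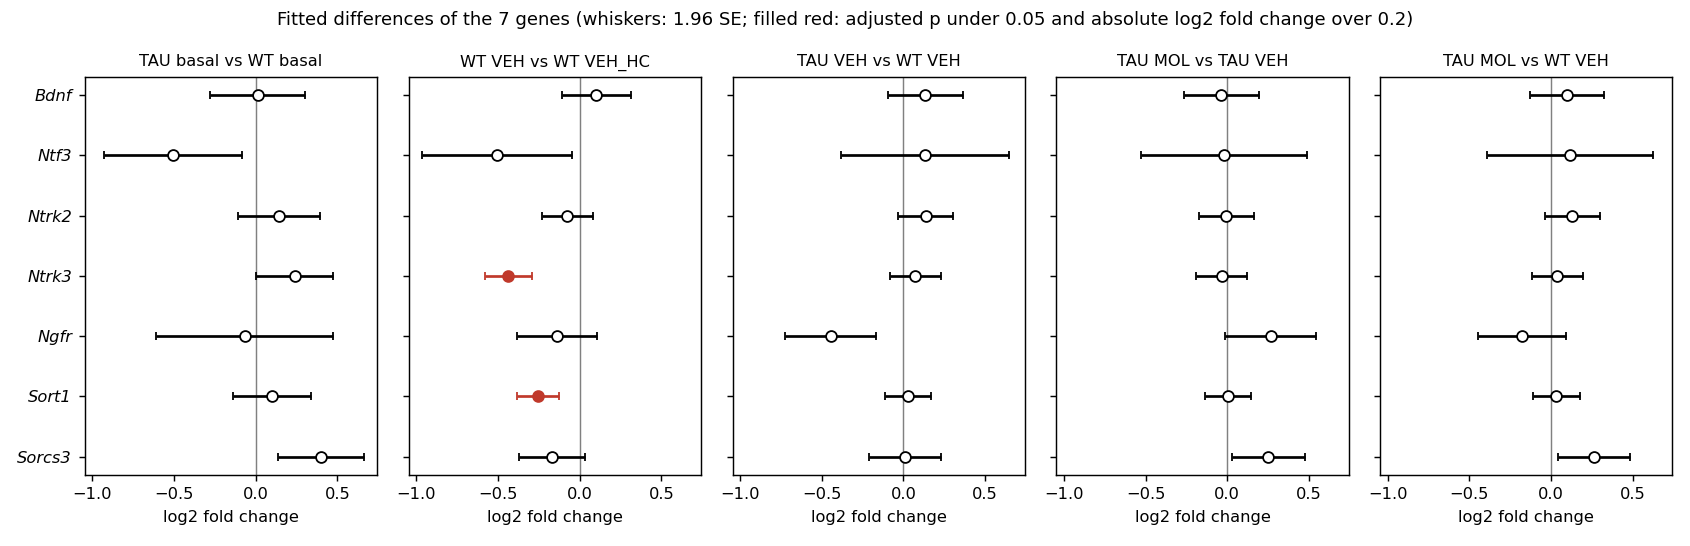
Fitted log2 fold change (horizontal axes) of the 7 genes in the 5 group comparisons. Whiskers show the 95% interval by a normal approximation, which is narrower than edgeR's test implies. Filled red points pass both limits on the adjusted p and the size of the change. Only Ntrk3 (-0.44) and Sort1 (-0.25) after training are filled, and Ntf3 and Ngfr, which had the fewest counts, have the widest whiskers.

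The other genes of the pathway were read from 6 lists of 86 genes, of which 81 were tested in each experiment. After training 15 of 81 (18.5%) were called, 9 higher and 6 lower, where 8.4% of all genes were called, 5.35% higher and 3.05% lower. Transcripts that TrkB signalling is known to induce moved most, with 7 of 11 higher and 0 lower (median log2 difference 0.71). The largest were Egr2 at 3.42 (SE 0.19, edgeR adjusted p = 1.2e-05), Fos at 2.00 (SE 0.13, adjusted p = 2.3e-05) and Arc at 1.47 (SE 0.092, adjusted p = 1.6e-05). These are immediate early genes that other routes of neuronal activity induce as well, and the list was made with earlier results of these data known. Of 16 factors that act on Bdnf transcription, 1 was called. This was Npas4, an activity-dependent factor of Bdnf promoters, higher by 0.88 (SE 0.19, edgeR adjusted p = 0.021). The Npas4 call was lost without WT VEH 1, without WT VEH 2 and with the choroid plexus covariate, and held in 15 of 18 alternatives. Egr2, Fos and Arc were called in 17 of 18, all but the fit with that covariate, which called 0 genes of the whole table, and their log2 differences were at least 3.10, 1.83 and 1.38 throughout. The median of the list was 0.79 with the covariate. Bdnf itself was not called in the same libraries, with the interval of -0.11 to 0.31 given above. By the paper, tissue was taken at a single time, 1 h after the last training, so other times are not covered.

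**Figure D4:**
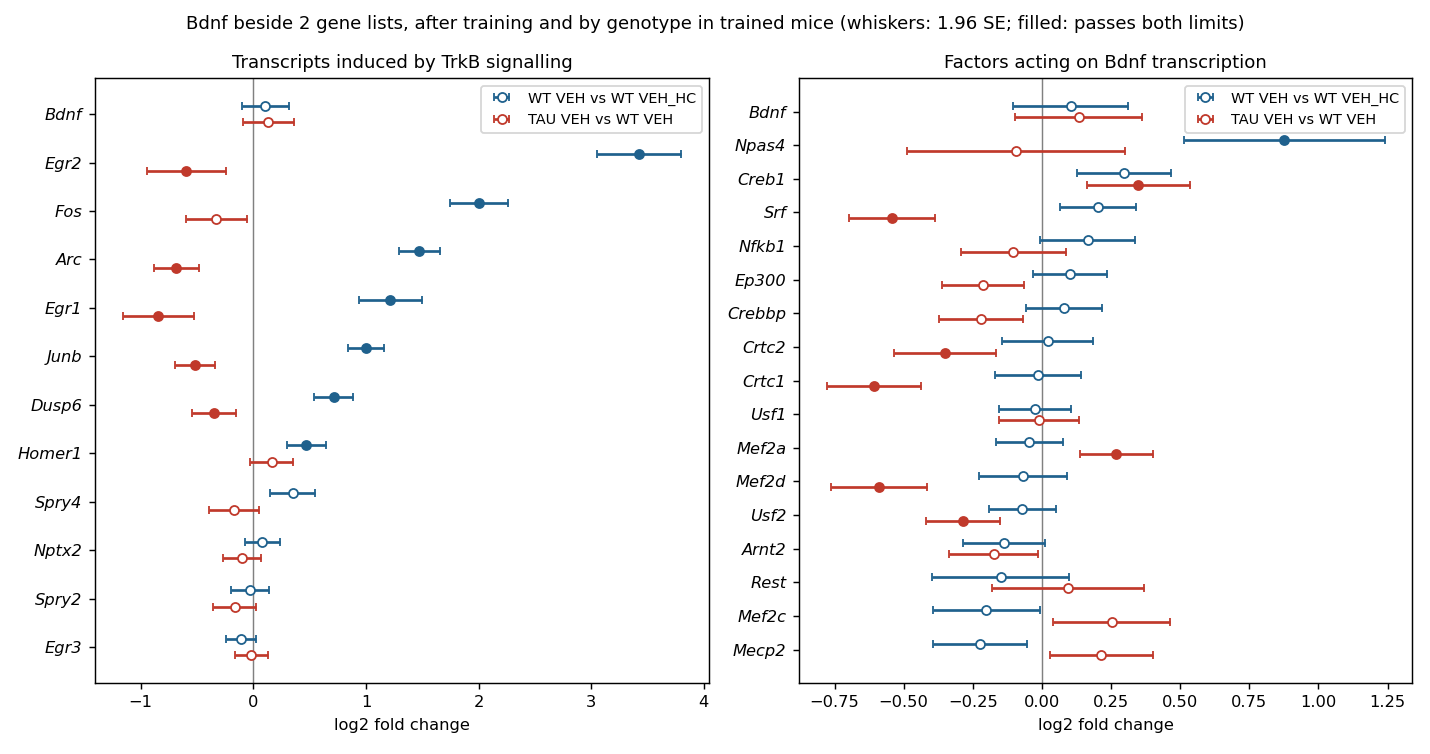
Log2 fold change (horizontal axes) of Bdnf and of 11 transcripts induced by TrkB signalling (left) or 16 factors acting on Bdnf transcription (right). Values are for WT VEH against WT VEH_HC (blue) and TAU VEH against WT VEH (red), which share the WT VEH libraries. Whiskers show the 95% interval by a normal approximation, which is narrower than edgeR's test implies. Filled points pass both limits; Bdnf is open in both, beside Egr2 at 3.42 and Npas4 at 0.88 after training.

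Of 27 Trk adaptors and effectors tested, 4 were lower and 1 higher after training. Shc2, an adaptor of Trk receptors, was at -0.35 (edgeR adjusted p = 0.035), Plcg1, the phospholipase C gamma that TrkB and TrkC bind, at -0.33 (adjusted p = 0.020), and Pik3ca, a PI3 kinase subunit, at 0.37 (adjusted p = 0.010). Sorcs2, a further sortilin family receptor, was lower by 0.27 on the log2 scale (SE 0.076, edgeR adjusted p = 0.0497), a call that held in 6 of 18 alternatives. Lingo1, a p75 co-receptor, was at -0.24 (edgeR adjusted p = 0.036) and was called in 8 of 18. None of the 12 tested genes of proneurotrophin processing passed after training in edgeR, where 4 had an unadjusted p under 0.05 (4683 of all 16820 genes) and DESeq2 called 1 (1845 of all genes). Shc2 was called in 7 of 18, not after the GC and length correction (-0.28), and Plcg1 in 14 of 18, and in 1 alternative each they were positive (0.26 and 0.09). Without WT VEH 1 the calls of Shc2, Plcg1, Pik3ca, Sorcs2 and Lingo1 were all lost, and without WT VEH 2 all of these but Pik3ca.

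In TAU VEH against WT VEH 27 of the 81 genes (33.3%) were called, 8 higher and 19 lower, where 14.4% of all genes were called, 3.61% higher and 10.8% lower. Of the 16 factors acting on Bdnf transcription, 5 were lower and 2 higher. Crtc1, a CREB coactivator, was at -0.61 (SE 0.087, edgeR adjusted p = 0.0014), Mef2d at -0.59 (SE 0.089, adjusted p = 0.0017) and Srf at -0.54 (SE 0.079, adjusted p = 0.0015), while Creb1 was among the higher ones at 0.35 (adjusted p = 0.029). Of the 11 TrkB-induced transcripts, 5 were lower, among them Egr1 at -0.84 (SE 0.16, edgeR adjusted p = 0.0047), Arc at -0.68 (SE 0.10, adjusted p = 0.0017) and Egr2 at -0.60 (SE 0.18, adjusted p = 0.045). Among 12 genes of the proneurotrophin processing list, Furin, a protease that cleaves proneurotrophins, was at -0.51 (SE 0.077, edgeR adjusted p = 0.0018). Plat, the tissue plasminogen activator, was at 0.29 (edgeR adjusted p = 0.044). Vgf, a member of that list but not a processing protease, was at -0.36 (edgeR adjusted p = 0.013). Of 27 Trk adaptors and effectors 4 were lower and 4 higher, with Frs3 at -0.63 (edgeR adjusted p = 0.0032) and Sh2b1 at -0.41 (adjusted p = 0.0017) against Camk4 at 0.38 (adjusted p = 0.0024). Of 10 p75 co-receptors and adaptors 3 were lower and 1 higher, with Arhgdia at -0.42 (edgeR adjusted p = 0.0020), Rtn4r at -0.39 (adjusted p = 0.019) and Lingo1 at -0.33 (adjusted p = 0.0060). Cell type markers moved in this comparison too, as given above beside Ngfr. Of 5 hippocampal neuron markers 4 were lower, among them Slc17a7 at -0.63 and Camk2a at -0.55, while 3 of 6 astrocyte markers were higher. Their part in the list counts was not tested.

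How many genes of each direction passed depended on the processing. Scaling by library totals alone moved the median of all genes in this comparison from 0.00 to 0.15, and all 27 called genes kept their sign under it. With libraries scaled by their totals alone, 2578 of all genes were called higher and 1020 lower. Under that scaling the factors acting on Bdnf transcription had 4 higher and 3 lower, the Trk adaptors and effectors 10 higher and 2 lower, and the processing genes 6 higher and 1 lower. After the GC and length correction the corresponding list counts were 0 and 2, 1 and 0, and 0 and 0, and the p75 list also had 0 and 0. That fit called fewer of all genes than the one reported, as given in the last section. Of the 27, 23 kept their sign after the GC and length correction, and the other 4 (Vgf, Usf2, Akt1 and Map2k2) came to between 0.00 and 0.07. With the choroid plexus covariate none of the 27 was called, in a fit that called no gene of the whole table. Crtc1 and Mef2d were called in 17 of 18 alternatives and kept their sign in all 18, at -0.44 each after the GC and length correction. Furin kept its sign in 18 of 18 and was called in 16. Of the TrkB-induced transcripts, 3 were lower and 1 higher with libraries scaled by their totals alone, and 2 were lower after the GC and length correction. That correction took the calls of Arc (-0.38) and Junb (-0.17), each of which held in 16 of 18 alternatives. Egr1 was called in 15 of 18, and its call was lost without WT VEH 1 and without TAU VEH 2. Egr2 was called in 7 of 18, with its call lost without WT VEH 1, WT VEH_HC 1, WT VEH_HC 3 or any 1 of the 4 libraries of TAU VEH and TAU MOL. Among the other genes named, Srf, Sh2b1, Camk4 and Arhgdia were called in 16 of 18, Frs3 in 15, Creb1 and Lingo1 in 13, Vgf and Rtn4r in 12 and Plat in 10.

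In TAU MOL against WT VEH 8 of the 81 genes were called (9.88%), all lower, where 5.63% of all genes were called and 89.1% of those were lower. They were Crtc1 (-0.51), Mef2d (-0.47), Furin (-0.43), Frs3 (-0.43), Lingo1 (-0.36), Arhgdia (-0.36), Srf (-0.34) and Sh2b1 (-0.27), with edgeR adjusted p from 0.010 to 0.043. None of these 8 was called after the GC and length correction, with the choroid plexus covariate, or when WT VEH 1, WT VEH 2, TAU MOL 1 or TAU MOL 2 was left out, and all 8 kept their sign in 18 of 18 alternatives. The GC and length fit called 25 and the covariate fit 2 genes of the whole table. With libraries scaled by their totals alone, which moved the median of all genes to 0.12 and the share of lower calls to 30.1%, the calls of Srf, Arhgdia, Sh2b1 and Frs3 were lost. Under that scaling 757 of all genes were called higher and 326 lower. The Trk adaptors and effectors had 7 higher and 0 lower there, the factors acting on Bdnf transcription 3 and 2, the p75 list 1 and 1 and the processing genes 0 and 1. After the GC and length correction Crtc1 was at -0.40, Mef2d at -0.36 and Furin at -0.33, whereas Srf was at -0.13 and Sh2b1 at -0.05. This comparison shares its WT VEH libraries with TAU VEH against WT VEH. Cell type markers moved in it too, with 8 of 14 choroid plexus markers and 2 of 5 hippocampal neuron markers lower (Slc17a7 at -0.68 and Camk2a at -0.50, and 11315 to 12330 against 16412 to 16490 summed CPM). Of the CA1, CA2, CA3 and microglia markers 1 each was lower (Fibcd1, Rgs14, Bok and Tmem119), and 2 of 6 astrocyte markers were higher (3822 to 4230 against 2959 to 3342). Their part in the list counts was not tested. In TAU MOL against TAU VEH none of the 81 passed in edgeR, where 18 had an unadjusted p under 0.05 (1064 of all 16820 genes) and DESeq2 called 1, a TrkB-induced transcript (54 of all genes). Arc was at 0.61 there (SE 0.10, edgeR adjusted p = 0.21) and Egr1 at 0.64 (adjusted p = 0.35). In the basal experiment 1 of the 81 was called, Arc, which was lower by 1.74 on the log2 scale in TAU (SE 0.20, edgeR adjusted p = 0.026). That call held in 9 of 13 alternatives and was lost without WT basal 2, TAU basal 1 or TAU basal 2 and with the choroid plexus covariate, while the difference stayed between -1.93 and -1.55 in all 13. In the same comparison 7 of the 11 TrkB-induced transcripts had an unadjusted p under 0.05, and DESeq2 called 7 of the 11 lower, where 803 of all 16324 genes had such a p and DESeq2 called 41. The genotype difference of the 2 experiments differed for 0 of 82 list genes in edgeR, with 16 at an unadjusted p under 0.05 (1325 of all 17026 genes) and 1 called by DESeq2 (121 of all genes).

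Likeness of pattern was measured over all 14 libraries as the root mean square difference of log2 CPM after each gene was centred within its table, among 12152 genes. The gene most like Ntrk3 was Plxna4 at 0.065, followed by Dscam and Csf2ra, where Ntrk3 itself varied by 0.18 around its mean. For Sort1 they were Srgap3 at 0.037, Eif4g1 and Tecpr2, where Sort1 varied by 0.11. For Bdnf they were Snapc3 at 0.061, Efha2 and Mcts1, and for Ntrk2 they were Itgam at 0.044, Sbf2 and Exoc6b. For the rarer genes the nearest were farther off, Setd1a at 0.11 for Ngfr and Foxo1 at 0.18 for Ntf3. For Sorcs3 the nearest was Arhgap30 at 0.094.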

How the data were processed

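Total RNA of dorsal hippocampus was made into unstranded poly-A libraries (TruSeq v2 kit) and sequenced as single-end reads. Per the submitters' notes and the paper, the authors used CASAVA 1.8.2, TopHat2 2.0.10 with Bowtie2 2.1.0 on mm9, and HTSeq 0.5.4p3 on Ensembl genes with uniquely aligned reads. They deposited raw counts per gene, used here for all tests, and a normalized signal (counts divided by 1 factor a library, made with DESeq2), which was not tested. The learning table had 138 blank lines, left out. The authors left 3 further learning libraries out, which were not analysed here. The paper gives high variability between samples as the reason, decided after the data were seen, and the 3 mice shared a litter. The spread within the learning groups is that of the libraries kept.

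Counts were fitted with edgeR 4.0.16 in R 4.3.3 (TMM, filterByExpr, quasi-likelihood F test, Benjamini-Hochberg over all genes), on 16324 genes of the basal and 16820 of the learning table. The basal table was fitted alone, the 9 learning libraries in 1 fit, and the difference between experiments on 17026 genes of both. Limits were an adjusted p of 0.05 and an absolute log2 fold change of 0.2. SE is the log2 fold change over the square root of F. Coordinates, exon lengths and promoter windows were read from GENCODE vM1 on NCBIM37, the mm9 build that the authors used. Libraries were taken as separate mice, and their common coefficient of variation was 0.129 in the basal and 0.084 in the learning experiment. Depth adds most to the error of Ngfr and Ntf3, which had the fewest counts. The fits were tested on simulated data. Tables and figures used Python 3.11.15, numpy 2.4.6, pandas 2.3.3 and matplotlib 3.10.9.

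Members and lists were chosen with earlier results of these data known. The text names the 7 members, at most 3 called genes a list and comparison with the largest change, and the 3 genes most like each member with at least 100 counts on average. Creb1, and Arc and Egr1 in TAU MOL against TAU VEH, were named after their values were seen. Alternatives were DESeq2 1.42.0, median-of-ratios factors, library size alone, no filter, a mean of at least 10 counts, only the groups compared, the replicate number as a block, loess correction for GC content and length (span 0.3), a choroid plexus covariate, no fold limit, and leaving out each library. They were read out for the lists after the data were seen. Same-numbered libraries of different groups were not tied by the labels, and their deviations correlated from -0.16 to 0.24.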

Additional observations from a re-analysis of the deposited data

How the results depend on the processing

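Of 714 values of the 7 genes under alternatives, 696 kept their side of the limits, 14 lost a call, 3 gained one and 1 reversed. The call count after training, 2 as reported, was 1 with library size alone, 1 with the GC and length correction, 1 with only the groups compared, 0 with the choroid plexus covariate and 3 without the low-count filter (Ntf3 added, adjusted p = 0.030), and 0 to 2 when 1 library was left out. Sort1 reversed to 0.13 with the choroid plexus covariate (edgeR adjusted p = 0.96). In TAU VEH against WT VEH 1 gene (Ntrk2) was called with library size alone, and in TAU MOL against WT VEH 1 (Sorcs3) with only the groups compared, against 0 as reported. Leaving out 1 library gave 0 calls in every comparison but training. The causes were not tested. The replicate block gave 2 calls after training, -0.43 for Ntrk3 and -0.30 for Sort1, and changed no call of the 7 genes; its numbers are not tied to litters or days by the labels, and some pairs correlated negatively.

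Over all genes, counts moved by more than 1.5 times in several fits. In the basal comparison 4 became 41 with DESeq2, 125 without a filter, 37 with the replicate block, 11 with the GC and length correction and 2 with the choroid plexus covariate. After training 1413 became 2686 without a filter, 3000 with the block, 776 with the GC and length correction, 0 with the covariate and 310 with only the groups compared. In TAU VEH against WT VEH 2423 became 489 and 0 with the GC and length correction and the covariate. In TAU MOL against TAU VEH 0 became 54 with DESeq2, 233 without a filter and 60 with only the groups compared. In TAU MOL against WT VEH 947 became 1590 without a filter, 25 with the GC and length correction, 2 with the covariate and 1490 with only the groups compared. For the difference between experiments 22 became 121 with DESeq2, 77 without a filter and 0 with the covariate. Leaving out 1 library gave 1 to 15, 73 to 2798, 915 to 2944, 0 to 15, 2 to 1379 and 7 to 764 in these comparisons. With library size alone the share of lower calls fell from 74.9% to 28.3% in TAU VEH against WT VEH (median of all genes 0.15), from 89.1% to 30.1% in TAU MOL against WT VEH (0.12) and from 36.3% to 25.4% after training.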
